A study of Mus musculus with 6 samples.

Results

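Wnt ligands, their receptors and co-receptors, and the proteins that hold Wnt signalling in check were described in mouse cells labelled as vascular smooth muscle cells (VSMCs), across 6 libraries sequenced by RNA-seq. The 50 genes were all protein-coding genes of the deposited table, which lists 54532 genes, whose symbols begin with Wnt, Fzd, Sfrp or Dkk followed by a digit, together with Frzb, Wif1, Lrp5, Lrp6, Ror1, Ror2, Ryk, Axin2, Lef1, Tcf7, Nkd1, Rnf43 and Znrf3. They comprise 19 Wnt ligands, 10 Frizzled receptors, 5 co-receptors, 10 secreted antagonists and 6 feedback or nuclear genes. The rule itself uses no measured value, but it was chosen with earlier results of these data known.

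Both groups were cells labelled as wild-type VSMCs and transduced with an adenovirus, and each was sequenced as 3 libraries. Ad-Con carried a control plasmid and Ad-PDK4 a plasmid meant to overexpress pyruvate dehydrogenase kinase 4, an inhibitor of the enzyme that feeds pyruvate into the citric acid cycle. According to the study's methods and results the cells came from mouse abdominal aortas, and cells of both groups had received angiotensin II, a peptide hormone that constricts vessels. The labels do not mention this peptide, and although the study calls its replicates biological, the labels do not say whether the 3 libraries of a group came from separate animals or cultures, so p-values measure only the spread between these libraries.

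Wnt proteins are secreted, lipid-modified ligands. Binding to a Frizzled receptor together with LRP5 or LRP6 stabilises beta-catenin, which enters the nucleus and acts with TCF/LEF factors, whereas binding to Frizzled with ROR1, ROR2 or RYK signals without beta-catenin to cell shape, polarity and movement. SFRP proteins and WIF1 bind Wnt ligands outside the cell, DKK1 blocks LRP5 and LRP6, and the cell limits its own response through AXIN2, NKD1, RNF43 and ZNRF3. In VSMCs the pathway is best known for its links to proliferation and migration.

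Pdk4 itself served as the check of the labels and did not follow them. The gene gave 679, 642 and 646 reads in the Ad-Con libraries and 490, 455 and 572 reads in those labelled Ad-PDK4, or 10.0 ± 0.469 against 7.48 ± 0.162 FPKM (mean ± SD, n = 3). It was thus lower under the overexpression label (log2 fold change -0.42, SE 0.06, adjusted p = 0.0011, limma), and the sources used here do not say whether vector-derived PDK4 reads would be counted at the mouse gene. The primers the study lists for cloning PDK4 match its primers for measuring mouse PDK4, but the insert of the adenovirus is not described separately. The labels were kept as given, and an exchange of the groups would turn every direction printed here. For this reason, "higher" and "lower" below mean higher or lower in the libraries labelled Ad-PDK4 than in the Ad-Con libraries. Values are FPKM, reads scaled by gene length and library size, and log2 fold changes are differences of log2(FPKM + 0.1). Library totals ran from 17588942 to 21861872 reads in genes, and 1 read in a gene of 1 kb corresponded to 0.0453 to 0.0571 FPKM.

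The cell type label was checked on markers. Of 9 smooth muscle markers 3 reached a mean of 0.5 FPKM, and the summed level of all 9 was 87.8 to 89.4 FPKM in Ad-Con and 43.3 to 48.2 FPKM in Ad-PDK4, most of it Acta2, the 1 marker of this list that was called (lower). Myh11, the smooth muscle myosin, had at most 10 reads and the coactivator gene Myocd at most 5 reads in any library. The contractile genes Tagln and Cnn1 were below the filter, at 0.341 ± 0.195 and 0.466 ± 0.0643 FPKM in Ad-Con and 0.292 and 0.247 FPKM in Ad-PDK4 (means). Des and Mylk were below it too (means of 0.186 and 0.756 FPKM in Ad-Con, 0.0468 and 0.123 FPKM in Ad-PDK4). Acta2 had means of 78.0 FPKM in Ad-Con and 36.2 FPKM in Ad-PDK4. Smtn (8.32 and 8.44 FPKM) and Lmod1 (0.720 and 0.570 FPKM, same order) reached the filter and were not called. The list was thus mixed, with Acta2 and Smtn expressed. Myh11, Myocd, Tagln and Cnn1, all at or near 0, go against the label, and the cells are called VSMCs here only because they are labelled so. Summed levels of 8 fibroblast markers were 1430 to 1556 FPKM in Ad-Con and 738 to 805 FPKM in Ad-PDK4, where 1 marker was higher (Dcn) and 4 were lower, and Col1a1 alone had means of 1055 and 435 FPKM. Pdgfra was not called (20.5 FPKM in Ad-Con and 19.9 FPKM in Ad-PDK4). Postn and Pi16 were below the filter, with means of 0.250 and 0.205 FPKM in Ad-Con and 0.0120 and 0.0232 FPKM in Ad-PDK4. Among the other lists, 7 macrophage markers summed to 15 to 17.9 against 5.91 to 7.44 FPKM with 1 lower (Cd68) and Ptprc, Tyrobp and C1qa at 0, 6 epithelial markers to 36.4 to 38.6 against 14.8 to 16.5 FPKM with 1 lower (Krt18) and Epcam, Krt5 and Krt14 at 0, and 7 endothelial markers to 0.617 to 0.798 against 0.885 to 1.18 FPKM with none called and Tie1 and Emcn at 0. Most of the macrophage sum was Cd68 (14.2 FPKM in Ad-Con and 4.24 FPKM in Ad-PDK4). Csf1r (0.258 and 0.640 FPKM, below the filter) and Lyz2 (1.51 and 1.98 FPKM, not called) went the other way without overlap. Krt18 (37.0 and 15.1 FPKM) made up most of the epithelial sum, and Kdr (0.536 and 0.919 FPKM, not called) most of the endothelial sum. The marker sums moved with the group labels, and their part in the changes of Wnt genes was not tested. In such bulk libraries fewer cells of a type and less RNA per cell cannot be told apart.

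Of the 50 genes, 24 had a mean of at least 0.5 FPKM over the 6 libraries and were tested. By limma with Benjamini-Hochberg adjustment over all 13423 tested genes, 10 were higher and 7 lower, with 0.05 as the limit on the adjusted p. These 17 are 70.8% of the 24, whereas 42.7% of all tested genes were called, 21.8% as higher and 20.8% as lower. Since the set was chosen with earlier results of these data known, these shares are a description only. With a fold change of at least 2 as well, 3 genes were higher, the receptor gene Fzd8, the antagonist Sfrp1 and the feedback gene Axin2. The co-receptor gene Ror2, the antagonist Sfrp4 and the ligand Wnt5b, 3 genes in all, were lower by this rule, against 6.63% of all tested genes called in either direction, 3.95% as higher and 2.68% as lower. In 19 of the 24 the groups did not overlap, against 54.3% of all tested genes. The median log2 fold change of the 24 was 0.04 and that of all tested genes -0.003, while the median size of the change, without its sign, was 0.50 against 0.25. Without Ad-PDK4 replicate 2 the lower genes with a fold change of at least 2 numbered 5, since Wnt16 (-1.11) and Tcf7 (-1.02) then passed that limit too. Calls in both directions occurred in every role group.

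**Figure D1:**
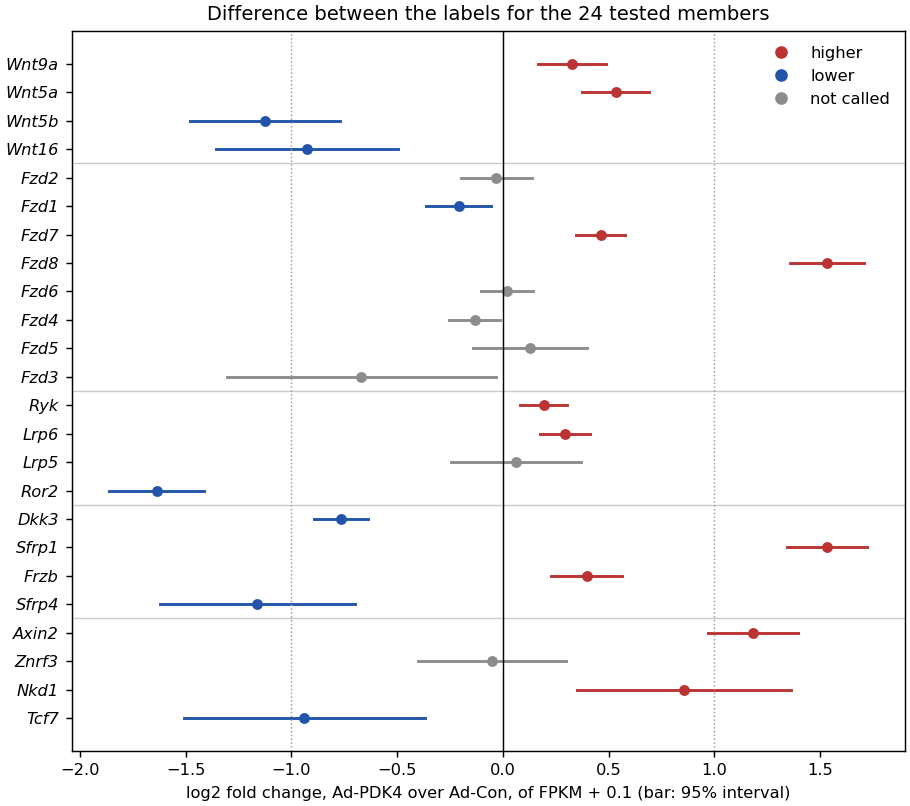
Log2 fold change (Ad-PDK4 over Ad-Con, of FPKM + 0.1) of the 24 tested genes, ordered within role, with 95% confidence intervals from limma and colour for higher, lower and not called. The dotted lines mark a fold change of 2, passed upward by Fzd8, Sfrp1 and Axin2 and downward by Ror2, Sfrp4 and Wnt5b.

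Promoter sequences are shown for 3 of these 6 genes, Axin2, Ror2 and Wnt5b, to place members with a fold change of at least 2 beside the letters through which TCF/LEF factors and AP-1, a factor activated by growth and stress signals, are known to bind. No windows were held for Sfrp1 and Sfrp4, and none is shown for Fzd8, although all 3 changed as much or more than Wnt5b. The sequences were taken from RefSeq on GRCm38.p6, 250 bases before the start of each gene, and the transcript start used is the gene start in the deposited table. The Axin2 window lies at chr11:108920099-108920348 on the plus strand, the Ror2 window at chr13:53286125-53286374 and the Wnt5b window at chr6:119544348-119544597, both on the minus strand. Each is written 5′ to 3′ on the gene's strand, and capitals mark AP-1 letters (TGANTCA).
Axin2: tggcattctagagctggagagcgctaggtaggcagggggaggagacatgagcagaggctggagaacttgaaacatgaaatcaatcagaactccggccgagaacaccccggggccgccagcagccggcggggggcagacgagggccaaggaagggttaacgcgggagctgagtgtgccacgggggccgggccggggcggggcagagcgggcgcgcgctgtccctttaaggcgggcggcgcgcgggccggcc
Ror2: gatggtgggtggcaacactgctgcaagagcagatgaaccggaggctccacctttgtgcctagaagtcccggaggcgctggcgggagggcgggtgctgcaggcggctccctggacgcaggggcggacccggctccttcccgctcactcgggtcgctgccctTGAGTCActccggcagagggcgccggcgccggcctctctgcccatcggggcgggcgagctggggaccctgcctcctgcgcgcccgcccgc
Wnt5b: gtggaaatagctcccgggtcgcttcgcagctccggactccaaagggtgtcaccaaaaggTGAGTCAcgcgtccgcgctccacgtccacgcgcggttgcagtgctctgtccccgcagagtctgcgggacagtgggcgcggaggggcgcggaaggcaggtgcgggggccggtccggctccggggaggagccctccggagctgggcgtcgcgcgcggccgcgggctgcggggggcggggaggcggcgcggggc

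The Ror2 and the Wnt5b window each hold 1 AP-1 match, beginning 90 and 191 bases before the start. The Axin2 window holds neither an AP-1 match nor the TCF/LEF core CTTTGA. All 3 are rich in G and C, with 69.2% for Axin2, 73.2% for Ror2 and 75.2% for Wnt5b. Windows running from 250 bases before to 50 after a start were held for 35 of the 50 genes, in 43 windows, and both strands were searched. AP-1 letters were in 2 of the 43 windows, those of Ror2 and Wnt5b, and in 7.81% of all 32851 windows. The 3 genes shown were picked by name and include both of these, and a link of AP-1 letters to the falls was not tested. The TCF/LEF core was in 7 of the 43 and in 16.0% of all windows. These were windows of Frzb, which was higher, of Fzd1 and Wnt5b, which were lower, and of Dkk1, Lef1, Ror1 and Wnt11, which were below the filter. For Wnt5b the TCF/LEF match lies at another start than the window shown. A match is a description of letters, not of a bound site.

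Among the ligands, 4 of 19 were tested. All 4 were called, 2 as higher and 2 as lower, against 42.7% of all tested genes. Wnt9a and Wnt5a were higher, and Wnt5b and Wnt16 were lower, with a median log2 fold change of -0.30. Wnt9a was the most abundant ligand per length. It measured 11.6, 12.2 and 10.9 FPKM in the Ad-Con libraries and 13.6, 14.8 and 15.3 FPKM in the Ad-PDK4 libraries. Every Ad-PDK4 library lay above every Ad-Con library, and the gene rose 1.26-fold (log2 fold change 0.33, SE 0.07, adjusted p = 0.0064).

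Wnt5a and Wnt5b encode closely related ligands that are best known for signalling without beta-catenin. Wnt5a read 5.73, 5.30 and 5.07 FPKM in Ad-Con and 7.74, 7.78 and 7.91 FPKM in Ad-PDK4. The Ad-PDK4 libraries sat close together and all above Ad-Con, a 1.45-fold rise (log2 fold change 0.53, SE 0.07, adjusted p = 5.6e-04). Of the exonic bases of Wnt5a, 4.58% overlap another gene on the opposite strand, and the use of strand in counting is not given in the sources used here. Wnt5b (ENSMUSG00000030170, chr6:119432531-119544347 on GRCm38, minus strand) moved the other way, from 3.80, 3.52 and 5.05 FPKM in Ad-Con to 1.57, 1.96 and 1.93 FPKM in Ad-PDK4. Ad-Con replicate 3 was the highest of its group, no library of one group reached the other, and the gene fell 2.18-fold (log2 fold change -1.13, SE 0.15, adjusted p = 7.9e-04). The level of Wnt5a divided by that of Wnt5b was 1.51, 1.51 and 1.0 in Ad-Con and 4.92, 3.97 and 4.10 in Ad-PDK4. Wnt16, a ligand described in bone and skin, had 1.95, 1.71 and 1.92 FPKM in Ad-Con and 0.781, 1.23 and 0.831 FPKM in Ad-PDK4. All Ad-PDK4 libraries were below all Ad-Con libraries, with replicate 2 the highest among them (log2 fold change -0.93, SE 0.19, adjusted p = 0.0051).

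The other 15 ligands were below the filter, and none passed the test when all 25202 genes with a read were fitted. Wnt4 was the most abundant of them, with 51, 18 and 35 reads in Ad-Con and 19, 23 and 12 reads in Ad-PDK4. Wnt7a had 25, 19 and 14 against 17, 8 and 18 reads, and Wnt10b 10, 8 and 12 against 3, 20 and 22. In each of these 3 genes the groups overlapped. Wnt2b gave 14, 12 and 10 reads in Ad-Con and 13, 12 and 20 in Ad-PDK4, and Wnt2 7, 3 and 0 against 0, 1 and 12, again with overlap. Wnt10a, with 3, 4 and 6 against 10, 11 and 8 reads, did not overlap, yet its adjusted p was 0.21 in the fit of all genes with a read (limma). At most 9 reads per library were found for Wnt11, Wnt6, Wnt8a and Wnt7b, and at most 2 for Wnt3 and Wnt8b. Wnt1, Wnt3a and Wnt9b, 3 ligands in all, had no read in any library, which allows up to 0.0721, 0.0621 and 0.0379 FPKM respectively at 3 reads in the library where a read weighs most. Such limits cover counting error only.

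Summed over all 19 genes, ligand level was 24.2 ± 0.419 FPKM in Ad-Con and 26.5 ± 1.28 FPKM in Ad-PDK4. The difference of the sums was not tested. The share of Wnt9a was 47.8 ± 3.21% in Ad-Con and 54.9 ± 0.964% in Ad-PDK4, and that of Wnt5a was 22.1 ± 1.16% and 29.5 ± 1.25%. The share of Wnt5b was 17.0 ± 3.35% in Ad-Con and 6.85 ± 0.492% in Ad-PDK4 (mean ± SD, n = 3), and no library of one group reached the other in any of these 3 shares.

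**Figure D2:**
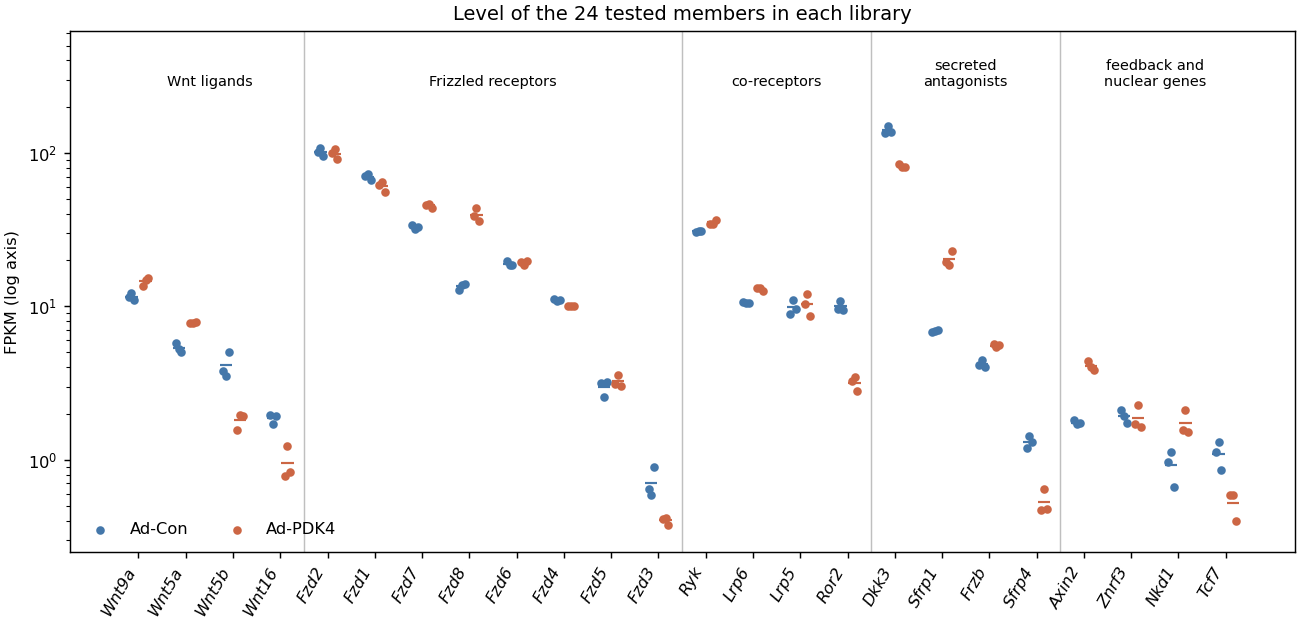
FPKM on a log axis of each tested gene in every library, Ad-Con and Ad-PDK4 as points of different colour with a short line at each group's mean, grouped by role. Fzd2 and Dkk3 stand highest, and the points of the groups lie apart for Fzd8, Sfrp1, Ror2 and Wnt5b but overlap for Fzd2, Fzd6 and Lrp5.

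Frizzled proteins are the seven-helix receptors that bind Wnt ligands directly. Of 10 genes 8 were tested, of which 2 were higher (Fzd7 and Fzd8), 1 was lower (Fzd1) and 5 were not called. The share called was 37.5%, against 42.7% of all tested genes, and the median log2 fold change of the 8 was -0.01. Fzd8 (ENSMUSG00000036904) carried the largest change of the family, from 12.9, 13.8 and 14 FPKM in Ad-Con to 38.9, 43.4 and 36.0 FPKM in Ad-PDK4. The groups lay far apart, and the gene rose 2.89-fold (log2 fold change 1.53, SE 0.08, adjusted p = 3.7e-06). Its length in the deposited table, 3346 bases, is shorter than the 5974 exonic bases of the matching GENCODE gene. What this difference means for its level or fold change was not tested. Fzd7 read 34.1, 32.0 and 33.0 FPKM in Ad-Con and 45.9, 46.6 and 44 FPKM in Ad-PDK4. All Ad-PDK4 libraries were above Ad-Con, a 1.38-fold rise (log2 fold change 0.46, SE 0.05, adjusted p = 2.2e-04).

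Fzd2 and Fzd1 were the most abundant receptors, at percentiles 96.6 and 94.3 of all tested genes. Fzd2 measured 101, 107 and 94.9 FPKM in Ad-Con and 99.5, 106 and 90.6 FPKM in Ad-PDK4. These groups overlapped and the gene was not called (log2 fold change -0.03, 95% interval -0.20 to 0.14, adjusted p = 0.76). Fzd1 measured 70.8, 72.9 and 66.5 FPKM in Ad-Con and 62.2, 64.2 and 55.7 FPKM in Ad-PDK4. Its groups did not overlap, but the fall was small, 1.16-fold (log2 fold change -0.21, SE 0.07, adjusted p = 0.036). The call was lost without Ad-Con replicate 1 or 2 or Ad-PDK4 replicate 1 or 3, with log2 fold changes of -0.20, -0.18, -0.23 and -0.15 and adjusted p of 0.097, 0.11, 0.071 and 0.078 in that order. For Fzd1 it was also lost with no filter (adjusted p = 0.074), under TPM scaling (0.087) and with plain moderation (0.078).

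Fzd6 and Fzd4 were moderately expressed and neither was called. Fzd6 gave 19.7, 18.5 and 18.7 FPKM in Ad-Con and 19.3, 18.6 and 19.8 FPKM in Ad-PDK4, with overlapping groups and 3.16% of its exonic bases shared with another gene (log2 fold change 0.02, 95% interval -0.10 to 0.14, adjusted p = 0.78). Fzd4, the receptor known from retinal vessel growth, gave 11.2, 10.9 and 11 FPKM in Ad-Con and 10.0, 10.0 and 10.1 FPKM in Ad-PDK4. All its Ad-PDK4 libraries were below Ad-Con, with a log2 fold change of -0.13 (95% interval -0.25 to -0.02, adjusted p = 0.068). Quantile normalization put it past the threshold (adjusted p = 0.015, limma). Fzd5 had a mean of 2.97 ± 0.360 FPKM in Ad-Con and 3.24 ± 0.272 FPKM in Ad-PDK4 and was not called (adjusted p = 0.41), with 17.8% of its exonic bases in overlap with another gene. Fzd3 had 0.708 ± 0.161 FPKM in Ad-Con and 0.402 ± 0.0239 FPKM in Ad-PDK4, without overlap and without a call (log2 fold change -0.67, SE 0.27, adjusted p = 0.085). It was called by limma-voom on reads (adjusted p = 0.0010) and by limma without trend and robust moderation (adjusted p = 0.015). Fzd9 had at most 6 reads and Fzd10 at most 2 reads in any library.

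Receptor level summed to 251 ± 8.21 FPKM in Ad-Con and 278 ± 16.9 FPKM in Ad-PDK4. Fzd8 made up 5.39 ± 0.348% of the sum in Ad-Con and 14.2 ± 0.517% in Ad-PDK4. The share of Fzd2 was 40.1 ± 1.13% and 35.6 ± 0.711% and that of Fzd1 27.9 ± 0.402% and 21.9 ± 0.402%. In mean FPKM Fzd8 stood below Fzd6 in Ad-Con and above it in Ad-PDK4, while Fzd2, Fzd1 and Fzd7 were above it in both groups. The level of Fzd8 divided by that of Fzd2 was 0.127 to 0.147 in Ad-Con and 0.391 to 0.407 in Ad-PDK4.

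The co-receptors decide which branch of the pathway a Frizzled serves. Of 5 genes, 4 were tested, with Ryk and Lrp6 higher, Ror2 lower and Lrp5 not called, and a median log2 fold change of 0.13. The share called was 75%, against 42.7% of all tested genes. Ror2 (ENSMUSG00000021464, chr13:53109312-53286124 on GRCm38, minus strand), the receptor tyrosine kinase that pairs with Wnt5a, measured 9.66, 10.9 and 9.51 FPKM in Ad-Con and 3.24, 3.45 and 2.80 FPKM in Ad-PDK4. Every Ad-PDK4 library was far below every Ad-Con library, and the gene fell 3.11-fold (log2 fold change -1.64, SE 0.10, adjusted p = 1.0e-05). This was the largest fall among the 24 tested genes. Ror1, the other member of that receptor family, was below the filter with 75, 41 and 49 reads in Ad-Con and 39, 39 and 53 reads in Ad-PDK4. Its groups overlapped (adjusted p = 0.48 in the fit of all genes with a read, limma).

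Ryk, a receptor with an inactive kinase domain, was the most abundant co-receptor. It measured 30.3, 31.1 and 31.0 FPKM in Ad-Con and 34.6, 34.5 and 36.6 FPKM in Ad-PDK4. All Ad-PDK4 libraries were above Ad-Con by a small step, 1.14-fold (log2 fold change 0.19, SE 0.05, adjusted p = 0.014). The call was lost without Ad-Con replicate 1 (log2 fold change 0.18, adjusted p = 0.054) and under quantile normalization (log2 fold change 0.14, adjusted p = 0.054). Lrp6 measured 10.7, 10.5 and 10.5 FPKM in Ad-Con and 13.1, 13.1 and 12.6 FPKM in Ad-PDK4. Its groups did not overlap and it rose 1.23-fold (log2 fold change 0.29, SE 0.05, adjusted p = 0.0028). Its relative Lrp5 read 8.95, 11 and 9.64 FPKM in Ad-Con and 10.4, 12.1 and 8.60 FPKM in Ad-PDK4. Here the groups overlapped, with both the highest and the lowest library in Ad-PDK4 (log2 fold change 0.06, 95% interval -0.25 to 0.37, adjusted p = 0.74). Whether Lrp5 and Lrp6 differed from each other in their response was not tested. Co-receptor level summed to 61.7 ± 1.90 FPKM in Ad-Con and 62.1 ± 1.31 FPKM in Ad-PDK4, of which Ror2 made up 16.2 ± 0.763% and 5.08 ± 0.445%.

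**Figure D3:**
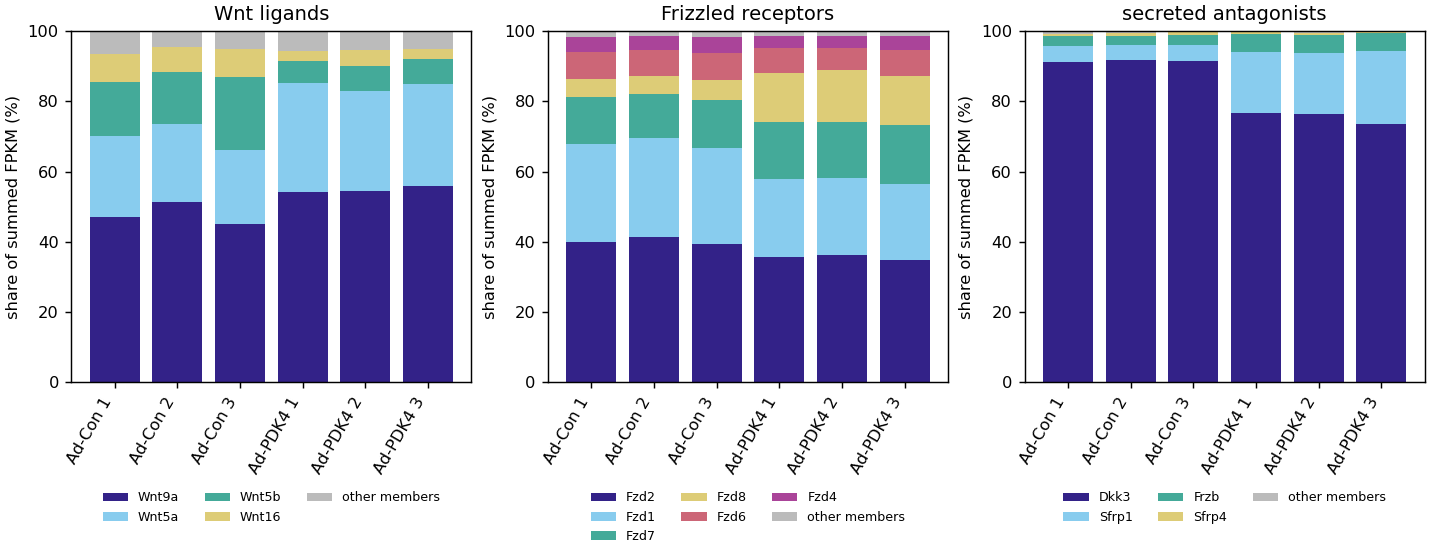
Share in percent of the summed FPKM of the Wnt ligands, the Frizzled receptors and the secreted antagonists taken by each gene, as 1 stacked bar per library with the 3 Ad-Con libraries on the left of each panel and the remaining genes in grey. In every Ad-PDK4 library the band of Wnt5b is narrower, and the bands of Fzd8 and Sfrp1 are wider, than in every Ad-Con library.

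Secreted antagonists act outside the cell. Of 10 genes 4 were tested and all 4 were called, against 42.7% of all tested genes. Sfrp1 and Frzb were higher and Dkk3 and Sfrp4 lower, with a median log2 fold change of -0.19. Sfrp1 (ENSMUSG00000031548, chr8:23411502-23449632 on GRCm38), a Wnt-binding protein with a Frizzled-like domain, measured 6.75, 6.94 and 7.04 FPKM in Ad-Con and 19.4, 18.5 and 22.8 FPKM in Ad-PDK4. The Ad-Con libraries were tightly grouped and all below Ad-PDK4, and the gene rose 2.89-fold (log2 fold change 1.53, SE 0.08, adjusted p = 6.0e-06). Sfrp4 (ENSMUSG00000021319, chr13:19623104-19632994 on GRCm38), of the same family, went the other way at a lower level, with 1.19, 1.42 and 1.31 FPKM in Ad-Con and 0.473, 0.643 and 0.477 FPKM in Ad-PDK4. No library of one group reached the other, and the gene fell 2.24-fold (log2 fold change -1.16, SE 0.20, adjusted p = 0.0025). The level of Sfrp1 divided by that of Sfrp4 was 4.90 to 5.69 in Ad-Con and 28.8 to 47.8 in Ad-PDK4.

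Dkk3 was by far the most abundant antagonist, at percentile 97.1 of all tested genes. It belongs to the Dickkopf family by sequence, but unlike DKK1 it is not established as a blocker of LRP5 and LRP6. Dkk3 measured 135, 150 and 136 FPKM in Ad-Con and 84.7, 81.5 and 80.9 FPKM in Ad-PDK4. All Ad-PDK4 libraries were below all Ad-Con libraries, a 1.70-fold fall (log2 fold change -0.77, SE 0.05, adjusted p = 2.7e-05). Frzb, also called Sfrp3, read 4.11, 4.47 and 4.00 FPKM in Ad-Con and 5.64, 5.42 and 5.58 FPKM in Ad-PDK4. Every Ad-PDK4 library exceeded every Ad-Con library, a 1.32-fold rise (log2 fold change 0.40, SE 0.07, adjusted p = 0.0034).

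The 6 antagonists below the filter included Dkk1, Dkk4 and Wif1 without a read in any library, which allows up to 0.0706, 0.130 and 0.0706 FPKM respectively. Sfrp5 had at most 1 read. Sfrp2 gave 36, 20 and 13 reads in Ad-Con and 10, 14 and 5 reads in Ad-PDK4, with overlapping groups (adjusted p = 0.17 in the fit of all genes with a read, limma). Dkk2 gave 12, 5 and 4 reads in Ad-Con and 7, 7 and 8 in Ad-PDK4, also with overlap. The summed level of the 10 genes was 153 ± 8.53 FPKM in Ad-Con and 109 ± 2.15 FPKM in Ad-PDK4. Dkk3 made up 91.5 ± 0.288% of it in Ad-Con and 75.5 ± 1.71% in Ad-PDK4, and Sfrp1 4.52 ± 0.242% and 18.6 ± 1.89%.

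Of the 6 feedback and nuclear genes 4 were tested, with Axin2 and Nkd1 higher, Tcf7 lower, Znrf3 not called and a median log2 fold change of 0.40. The share called was 75%, against 42.7% of all tested genes. Axin2 (ENSMUSG00000000142, chr11:108920349-108950783 on GRCm38), a scaffold of the complex that degrades beta-catenin and a widely used target of the pathway, measured 1.8, 1.71 and 1.73 FPKM in Ad-Con and 4.41, 4.03 and 3.86 FPKM in Ad-PDK4. Its groups were far apart relative to their spread, and it rose 2.27-fold (log2 fold change 1.18, SE 0.09, adjusted p = 4.3e-05). Of its exonic bases 3.80% overlap another gene. Nkd1, which binds the transducer Dishevelled, measured 0.970, 1.12 and 0.666 FPKM in Ad-Con and 1.57, 2.11 and 1.52 FPKM in Ad-PDK4. Both groups were spread, with replicate 2 the highest in each, but they did not overlap (log2 fold change 0.86, SE 0.22, adjusted p = 0.015). Without Ad-PDK4 replicate 2 its log2 fold change was 0.72 and the call was lost (adjusted p = 0.053).

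Tcf7, the gene of the DNA-binding factor TCF1, measured 1.12, 1.30 and 0.862 FPKM in Ad-Con and 0.586, 0.588 and 0.397 FPKM in Ad-PDK4. All Ad-PDK4 libraries were lower, with replicate 3 the lowest of each group (log2 fold change -0.94, SE 0.25, adjusted p = 0.017). The call was lost without Ad-Con replicate 1 (log2 fold change -0.91, adjusted p = 0.059) and without Ad-Con replicate 2 (log2 fold change -0.81, adjusted p = 0.066). Znrf3 and Rnf43 encode membrane ubiquitin ligases that remove Frizzled receptors from the cell surface. Znrf3 had a mean of 1.93 ± 0.189 FPKM in Ad-Con and 1.87 ± 0.347 FPKM in Ad-PDK4, with overlapping groups (log2 fold change -0.05, 95% interval -0.40 to 0.30, adjusted p = 0.82). Rnf43 was below the filter, with 19, 9 and 19 reads in Ad-Con and 3, 16 and 27 reads in Ad-PDK4. Lef1, the gene of another TCF/LEF factor, had 2 reads in 1 library and none in the other 5.

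The rest of the pathway was followed in 7 lists that together hold 103 other genes, also chosen with earlier results of these data known. Of 80 tested genes 23 were higher and 19 lower, or 52.5%, against 42.7% of all tested genes (21.8% higher and 20.8% lower), and their median log2 fold change was 0.004. Of the 23 genes below the filter, 6 had no read and 17 could be fitted among all 25202 genes with a read. There 3 passed, all as higher (Lgr5, Rspo1 and Ascl2), and 14 did not. Among all 25202 genes of that fit, 2677 were higher and 2502 lower. In the processing and release list 4 of 5 genes were tested and all 4 were called, with a median of 0.01. Porcn, the enzyme that adds the lipid to Wnt proteins, fell from 2.83 ± 0.491 to 1.57 ± 0.178 FPKM (log2 fold change -0.80, SE 0.15). Wls, the carrier that takes Wnt proteins to the surface, fell slightly, from 50.2 ± 0.334 to 43.8 ± 2.56 FPKM (log2 fold change -0.20, SE 0.05). Of the cargo receptors of the secretory route, Tmed5 rose (log2 fold change 0.50, SE 0.12) and Tmed2 rose (log2 fold change 0.22, SE 0.07). The largest adjusted p among these 4 was 0.035 (limma). The call of Wls was lost without any 1 of the Ad-Con libraries or without Ad-PDK4 replicate 1, at adjusted p of 0.055 to 0.069. That of Tmed2 was lost without any 1 library other than Ad-PDK4 replicate 1, at adjusted p of 0.065 to 0.10.

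R-spondins are secreted proteins that enhance Wnt signalling through LGR receptors by drawing off ZNRF3 and RNF43. Of 7 such genes, 3 were tested, with 1 higher, 1 lower and 1 not called (66.7% called, against 42.7% of all tested genes). Rspo3 measured 5.45, 4.55 and 5.23 FPKM in Ad-Con and 12.6, 10.1 and 12.7 FPKM in Ad-PDK4. It rose 2.29-fold with no overlap (log2 fold change 1.19, SE 0.11, adjusted p = 9.9e-05). The receptor gene Lgr6 measured 3.95, 3.71 and 3.38 FPKM in Ad-Con and 1.52, 1.55 and 1.34 FPKM in Ad-PDK4. It fell 2.4-fold, again with no overlap (log2 fold change -1.27, SE 0.11, adjusted p = 6.9e-05). The median of the 3 was -0.25. Below the filter, and named after their values were seen, Lgr5, a receptor gene, had 22, 7 and 10 reads in Ad-Con and 62, 78 and 83 reads in Ad-PDK4, and the ligand gene Rspo1 had 0, 0 and 0 against 5, 8 and 4 reads. Rspo1 entered the fit of all genes with a read only through the group where it was high, so its pass there is no evidence of a rise.

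Of 16 further extracellular or membrane modulators 8 were tested, with 1 higher, 2 lower and a median of -0.07. The share called was 37.5%, against 42.7% of all tested genes. The glypican gene Gpc4, a cell-surface proteoglycan core, rose from 48.6 ± 4.26 to 70.4 ± 2.83 FPKM (log2 fold change 0.54, SE 0.07). Tpbg, which inhibits Wnt signalling at the membrane, fell (log2 fold change -0.41, SE 0.10), as did the inhibitor gene Apcdd1 (log2 fold change -0.79, SE 0.11), and the largest adjusted p of the 3 was 0.011 (limma).

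All 21 transducers and destruction complex genes were tested, with 6 higher, 4 lower and a median of 0.04. The share called was 47.6%, against 42.7% of all tested genes. Nkd2, the relative of Nkd1, measured 1.77, 2.03 and 1.25 FPKM in Ad-Con and 6.22, 6.39 and 6.80 FPKM in Ad-PDK4. It rose 3.75-fold, the largest rise of this list (log2 fold change 1.91, SE 0.16, adjusted p = 6.6e-05). The Dishevelled-binding genes Dact1 and Dact2 moved in opposite directions. Dact1 rose from 0.822 ± 0.0596 to 1.8 ± 0.128 FPKM (log2 fold change 1.04, SE 0.14), and Dact2 fell from 6.80 ± 0.472 to 2.68 ± 0.197 FPKM (log2 fold change -1.31, SE 0.09). Amer1, a membrane adaptor of the destruction complex, rose from 4.74 ± 0.252 to 9.25 ± 0.149 FPKM (log2 fold change 0.95, SE 0.07). Ctnnbip1, which keeps beta-catenin from TCF factors, fell from 4.76 ± 0.209 to 2.43 ± 0.197 FPKM (log2 fold change -0.94, SE 0.09). The kinase gene Csnk1e fell (log2 fold change -0.42, SE 0.07). The largest adjusted p among these 6 was 0.0018 (limma).

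Of 13 nuclear partners, all tested, 4 were higher and 3 lower, with a median of 0.01. The share called was 53.8%, against 42.7% of all tested genes. The corepressor gene Tle4 (log2 fold change 0.49, SE 0.13), the beta-catenin coactivator gene Bcl9l (log2 fold change 0.39, SE 0.09) and the TCF factor gene Tcf7l2 (log2 fold change 0.34, SE 0.09) showed the largest rises. The coactivator gene Pygo1 (log2 fold change -0.83, SE 0.10), the corepressor gene Tle2 (log2 fold change -0.75, SE 0.12) and the TCF factor gene Tcf7l1 (log2 fold change -0.33, SE 0.09) were the 3 that fell. The largest adjusted p among the 6 was 0.017 (limma). The call was lost for Tle4 without Ad-PDK4 replicate 3 (adjusted p = 0.056) and for Tcf7l2 without Ad-Con replicate 3 (adjusted p = 0.055). For Tcf7l1 it was lost without Ad-Con replicate 2 or Ad-PDK4 replicate 1 (adjusted p = 0.053 in both).

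In the planar polarity and beta-catenin independent list, 16 of 20 genes were tested, of which 2 were higher, 4 were lower and 10 were not called. The share called was 37.5%, against 42.7% of all tested genes, and the median was -0.06. The formin gene Daam2 fell from 4.17 ± 0.213 to 2.26 ± 0.233 FPKM (log2 fold change -0.86, SE 0.10), and the polarity gene Vangl2 from 3.33 ± 0.146 to 2.36 ± 0.322 FPKM (log2 fold change -0.49, SE 0.12). Vangl1 (log2 fold change -0.29, SE 0.08) and the transcription factor gene Nfatc1 (log2 fold change -0.23, SE 0.08) also fell. The co-receptor gene Ptk7 (log2 fold change 0.25, SE 0.07) and the polarity gene Prickle2 (log2 fold change 0.28, SE 0.08) rose. The largest adjusted p among the 6 was 0.047, that of Nfatc1 (limma), whose call was lost without any 1 library, at adjusted p of 0.079 to 0.12, and with no filter (0.077), TPM scaling (0.098) or the replicate number as a block (0.089). The call was lost for Ptk7 without Ad-Con replicate 1 or 3 or Ad-PDK4 replicate 1 (adjusted p of 0.052 to 0.070), for Vangl1 without Ad-Con replicate 2 or Ad-PDK4 replicate 1 (adjusted p of 0.063 and 0.057), and for Prickle2 without Ad-Con replicate 1 or Ad-PDK4 replicate 3 (adjusted p of 0.074 and 0.058).

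Of 23 often cited beta-catenin target genes 15 were tested, with 7 higher, 3 lower and a median of 0.20. The share called was 66.7%, against 42.7% of all tested genes (21.8% higher and 20.8% lower). As this list was chosen with earlier results known, these shares are a description only. Wisp2, a matricellular protein gene also called Ccn5, measured 7.66, 7.81 and 7.97 FPKM in Ad-Con and 30.5, 31.6 and 32.1 FPKM in Ad-PDK4. Its groups were far apart, and it rose 3.98-fold (log2 fold change 1.99, SE 0.05, adjusted p = 1.2e-07). The transcription factor gene Sp5 measured 0.819, 0.597 and 0.946 FPKM in Ad-Con and 2.04, 2.69 and 2.78 FPKM in Ad-PDK4. It rose 2.95-fold, without overlap (log2 fold change 1.56, SE 0.20, adjusted p = 5.2e-04). Myc rose 1.75-fold, from 7.13 ± 0.675 to 12.5 ± 0.384 FPKM (log2 fold change 0.81, SE 0.08). The other way, the adhesion gene Nrcam fell from 1.04 ± 0.118 to 0.426 ± 0.0462 FPKM (log2 fold change -1.12, SE 0.22), the cell division gene Birc5 from 2.72 ± 0.444 to 1.23 ± 0.111 FPKM (log2 fold change -1.07, SE 0.15) and the transcription factor gene Sox9 from 11.6 ± 0.564 to 7.05 ± 0.296 FPKM (log2 fold change -0.71, SE 0.06). The largest adjusted p among these 4 last named was 0.0049 (limma). Ascl2, below the filter and named after its values were seen, had 2, 4 and 2 reads in Ad-Con and 23, 23 and 29 reads in Ad-PDK4.

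**Figure D4:**
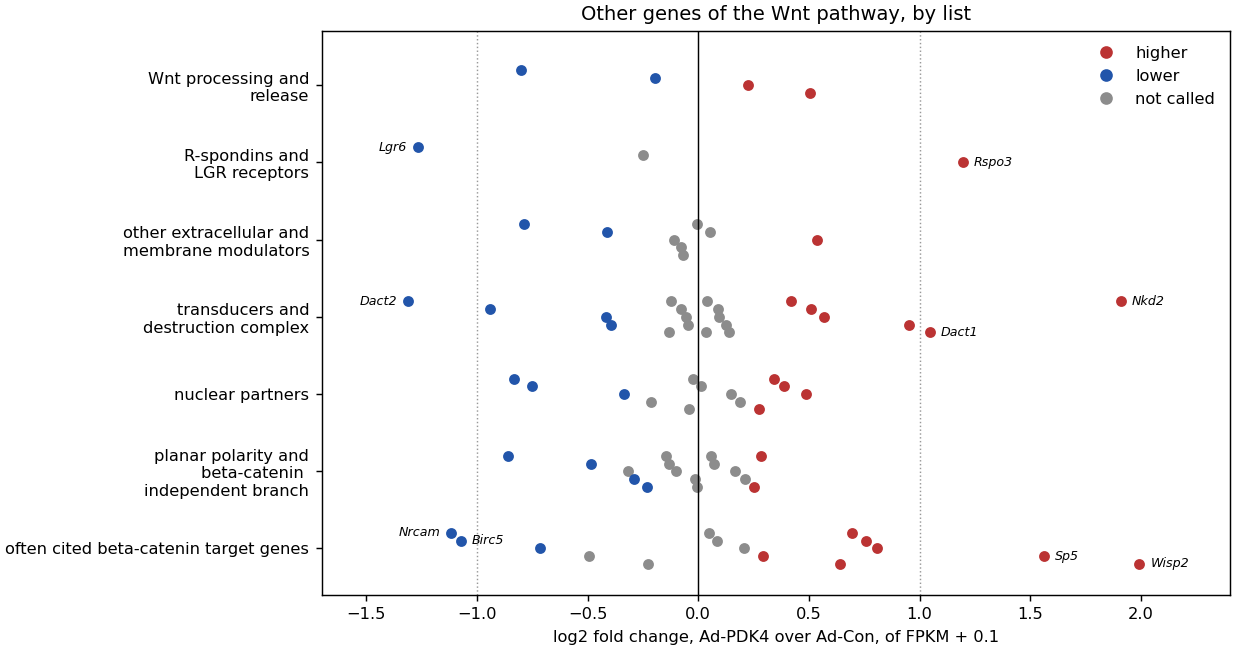
Log2 fold change (Ad-PDK4 over Ad-Con, of FPKM + 0.1) of the 80 tested genes of the 7 lists, 1 point per gene, coloured for higher, lower and not called, with dotted lines at a fold change of 2. Calls lie on both sides of 0 in every list, and the genes named in the plot, all past a fold change of 2, run from Dact2 and Lgr6 on the left to Nkd2 and Wisp2 on the right.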

How the data were processed

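Expression was measured by RNA-seq in 3 Ad-Con and 3 Ad-PDK4 libraries, grouped by treatment label and numbered by title. The authors deposited FPKM per gene and library with the gene lengths, without pooling replicates. The submitters' processing notes name CASAVA 1.8, fastp, HISAT2 2.0.5, featureCounts 1.5.0-p3, DESeq2 1.20.0 and GRCm39. The coordinates match GRCm38 instead, since 98.3% of the 54495 identifiers found in GENCODE mouse release M21 had the same position, as did 49 of the 50 genes described (all but Fzd8). The library kit is SMARTER in the labels and NEBNext Ultra in the methods, and the use of strand in counting is not given in the sources used here. Dividing FPKM by the value of 1 read gave whole numbers, within 0.01, for 100% of values, and these are called reads here. The deposited FPKM were already scaled between libraries by median-of-ratios.

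The deposited unit is FPKM, so no count model was chosen as the main test, and the recovered reads were used only in an alternative. Log2(FPKM + 0.1) was therefore fitted by group, without covariates, in R 4.3.3 with limma 3.58.1 and trended, robust moderation, over the 13423 genes with a mean of at least 0.5 FPKM, over which Benjamini-Hochberg adjustment was made. Calls used an adjusted p below 0.05, alone or with a change of at least 2-fold. The code was tested on simulated data. Alternatives were pseudocounts of 0.01 and 1, no filter, a mean of at least 5 FPKM, median-of-ratios, TPM and quantile scaling, plain moderation, a block for the replicate number, limma-voom on the recovered reads, and leaving out each library. Genes called or with a mean of at least 5 FPKM were given in every library, and genes under the filter by reads where a library had at least 10. Of each other list the 3 largest called rises and falls were named, or every called gene where there were at most 6. The genes and lists were chosen with earlier results of these data known. Exons of 8 of the genes overlap another gene, and 10 share stretches of 50 bases with other transcripts, at most 8.27% of the longest transcript (Wnt4).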

Additional observations from a re-analysis of the deposited data

How the results depend on the processing

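Among the 17 called Wnt genes, 13 kept their call and direction in every alternative that tested them, and those that lost it in at least 1 were Fzd1, Ryk, Nkd1 and Tcf7. No call changed direction. The number of lower genes, 7, became 3 with a mean of at least 5 FPKM, since fewer genes were then tested, and the lower genes of the other pathway lists went from 19 to 9 for the same reason. Lower genes with a fold change of at least 2, 3 in all, became 1 with a pseudocount of 1, 1 with a mean of at least 5 FPKM and 5 with limma-voom. Leaving out 1 library gave 9 to 10 higher and 5 to 7 lower genes, 3 to 4 and 3 to 5 with a fold change of at least 2, and 21 to 23 higher and 15 to 22 lower genes in the other lists. The median log2 fold change of the 24 tested genes, 0.04, was -0.01 under quantile normalization and -0.005 without Ad-PDK4 replicate 2, and the median of all genes stayed within 0.04 of 0. Same-numbered libraries did not deviate together (correlations of -0.046, -0.031 and -0.001), and with the replicate number as a block 10 genes were higher and 7 lower, 3 and 3 of them with a fold change of at least 2. In the other lists 23 were higher and 19 lower with that block, and of the genes named only Nfatc1 lost its call. Depth limits the 26 genes below the filter, of which 11 had at most 3 reads in every library, and fold changes of low genes are understated by the pseudocount.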
